A study of Mus musculus with 4 samples.

Results

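The brush border is the layer of microvilli on the luminal face of absorptive enterocytes, and it carries the enzymes that finish digestion and the transporters that take up the products. A set of 43 mouse genes of the brush border was chosen by name, and all 43 were found among the 17762 genes listed in at least 1 library. By role they were 4 disaccharidases, 11 peptidases and other hydrolases, 3 sugar transporters, 8 amino acid and peptide transporters, 7 nucleoside, ion and folate transporters, and 10 genes of microvillus structure. All 43 were listed in each of the 4 libraries and all passed the filter on low counts, so none is missing from what follows.

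The libraries were made from polyadenylated RNA of intestinal adenomas of C57BL/6 ApcMin mice aged 110 days. ApcMin mice are heterozygous for a truncating mutation of Apc, a suppressor of Wnt signalling, and every animal here, controls included, carried it. The groups were ApcMin Strap KO (KO, n = 2 libraries) and ApcMin Strap WT (WT, n = 2 libraries). Strap encodes a WD-repeat protein known as an inhibitor of TGF-beta signalling. The series text writes the KO genotype as StrapIEKO, and neither the promoter that drives the deletion nor the number of adenomas or animals behind a library is stated. No label ties a library to an animal of its own, so the p-values measure only the spread between these libraries, which may in part be technical. In each group the 2 libraries differed in Xist and Ddx3y, given below, so they did not come from the same single animal. The spread within a group thus also holds any difference between male- and female-type libraries.

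Absorptive cells build the brush border as they leave the crypt. Villin, espin and the EPS8 protein bundle and cap actin filaments, protocadherins CDHR2 and CDHR5 tie the tips of neighbouring microvilli together, and myosins carry cargo and tension. HNF4A, CDX2 and GATA4 are among the transcription factors known for switching on enterocyte genes, and GATA4 does so in the proximal small intestine and not in the ileum. Many brush border genes are also regional: lactase is a gene of the proximal and middle small intestine, while bile acid uptake by SLC10A2 and its carrier FABP6 belong to the ileum.

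Total expected counts were 15640941 and 14084831 in KO libraries 1 and 2, against 15422957 and 15255237 in WT libraries 1 and 2. Levels below are CPM, counts relative to the library's total after TMM scaling, unless given as FPKM. Strap had 20.5 and 24.8 CPM in KO libraries, against 157 and 112 CPM in WT libraries (log2 fold change -2.57, SE 0.26, edgeR adjusted p = 0.0942), so both KO libraries were far below both WT libraries, as their labels say. The tissue label reads colon adenoma, but the colon markers Car1 and Hoxb13 were low. Car1, a colonic carbonic anhydrase, was at most 4.21 CPM and Hoxb13, a homeobox gene of the distal colon, at most 0.778 CPM in any library, whereas the small-intestinal gene Lct had at least 159 CPM and Fabp6 at least 118 CPM in every library. The colon list of 14 genes summed to 6315 and 4083 CPM in KO libraries, against 2702 and 2568 CPM in WT libraries. Most of that was Lypd8, with 5923 and 3818 CPM in KO libraries, against 2090 and 2318 CPM in WT libraries. The colon list thus held both low and abundant genes. WT library 2 stood apart in the sums of regional markers. The 13 proximal small-intestinal markers summed to 6661 and 4209 CPM in KO libraries, against 6260 and 696 CPM in WT libraries. The 11 ileal markers, of which 10 were listed, summed to 2752 and 1700 CPM in KO libraries, against 2685 and 6503 CPM in WT libraries. Of the 6503 CPM in WT library 2, Naaladl1, itself a member, held 2101 CPM. Single genes did not all follow: the proximal Cybrd1 and S100g, given below, were higher in WT library 2 than in either KO library. Fibroblast markers summed to at most 12.3 CPM and smooth muscle markers to at most 4.87 CPM in any library, while the 7 general epithelial markers summed to 12244 and 8209 CPM in KO libraries, against 10162 and 12118 CPM in WT libraries. WT library 2 was also the highest for the 7 Paneth cell markers, which summed to 12924 and 8070 CPM in KO libraries, against 10350 and 28069 CPM in WT libraries. The 7 goblet cell markers summed to 8789 and 9180 CPM in KO libraries, against 5538 and 15755 CPM in WT libraries. The 6 tuft cell markers, all of them listed and Il25 at 0 in 3 libraries, summed to 27.0 and 7.08 CPM in KO libraries, against 74.7 and 113 CPM in WT libraries. DESeq2 called 2 of the 5 tested lower, where it called 3.26% of all genes lower, while edgeR called none. It also called lower 1 of the 7 Paneth cell, 1 of the 7 epithelial and 1 of the 10 crypt and cycling markers. The 10 crypt and cycling markers summed to 1191 and 1347 CPM in KO libraries, against 966 and 2186 CPM in WT libraries, and Lgr5, the stem cell receptor among them, had 4.84 and 6.26 CPM in KO libraries, against 34.4 and 70.5 CPM in WT libraries (log2 fold change -3.24, SE 0.41, edgeR adjusted p = 0.1). The T and natural killer cell markers, all 8 of them listed, summed to 30.5 and 276 CPM in KO libraries, against 50.3 and 35.5 CPM in WT libraries. Xist was 197 and 0.953 CPM in KO libraries 1 and 2, against 967 and 0.194 CPM in WT libraries 1 and 2, and Ddx3y of the Y chromosome was 0 and 33.3 CPM, against 0 and 39.1 CPM, so both libraries numbered 2 had male-type levels.

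Across the whole set, edgeR detected no difference between KO and WT adenomas beyond the spread between libraries, while DESeq2 called 3 members lower. No member passed an adjusted p of 0.05 with edgeR's quasi-likelihood test, the main test here, where 0.00783% of the 12769 genes tested were called higher and 0.0% lower. Strap, the deleted gene, did not pass with edgeR either, although DESeq2 called it lower. The absence of edgeR calls thus says little about whether members differ. Without adjustment, 5 members had p under 0.05, and 15.8% of all genes did. Lower in KO among them were 4, Mep1a, Naaladl1, Slc6a20a and Tmigd1 (8.69% of all genes), and higher was 1, Ggt1 (7.08% of all genes). DESeq2 called 3 members lower, Tmigd1, Mep1a and Slc6a20a, and none higher, where it called 3.26% of genes lower and 1.77% higher. The log2 fold change was above 0 for 21 members and below 0 for 22, with a median of -0.06, and over all genes tested the median was 0.00. Together the 43 genes took 2.49% and 3.59% of the counts in KO libraries, against 3.36% and 2.86% in WT libraries, so the groups overlapped. In bulk RNA, fewer enterocytes and less RNA per enterocyte cannot be told apart.

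**Figure D1:**
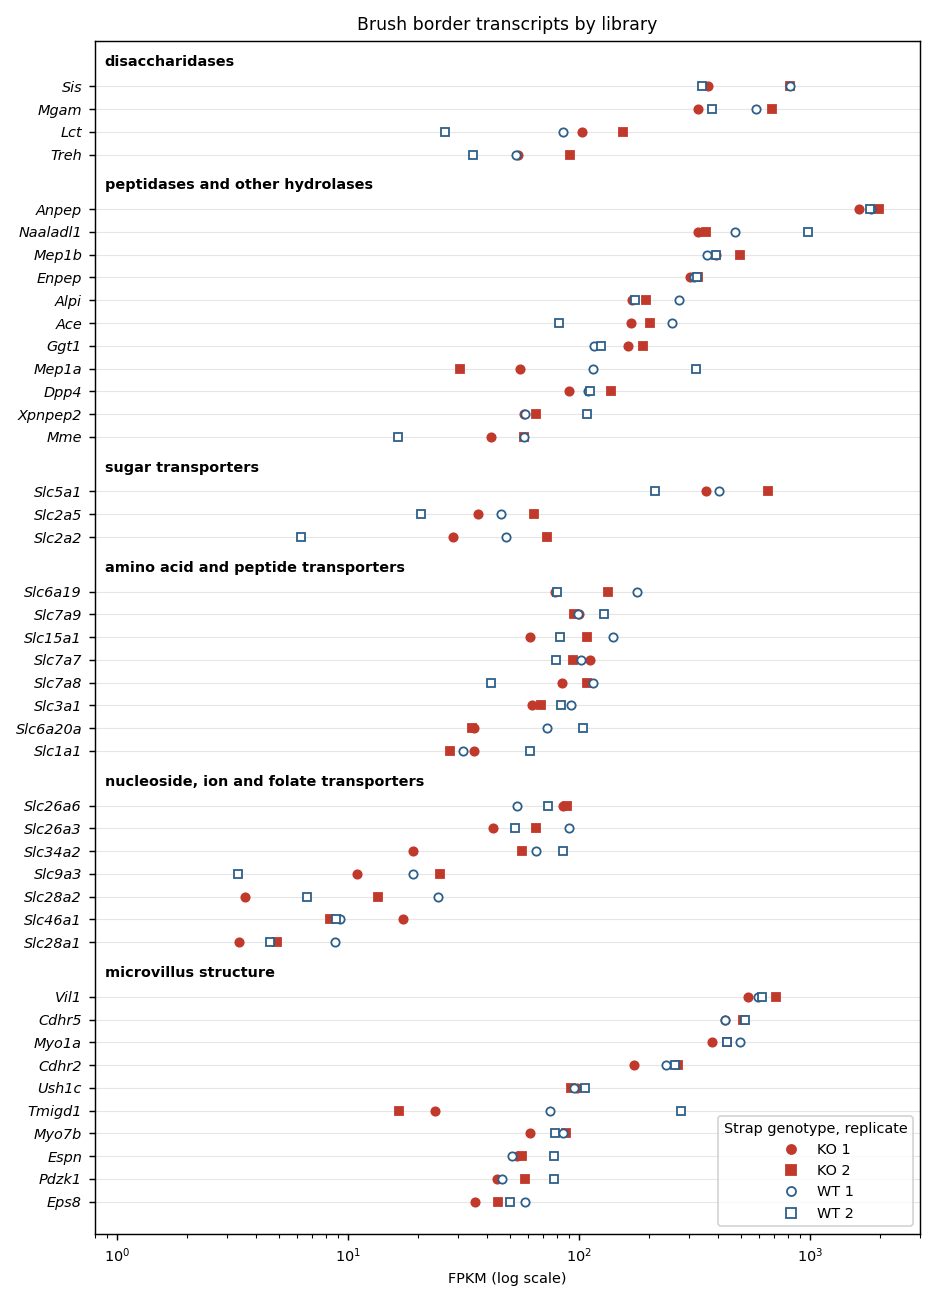
FPKM (a level scaled by transcript length, log scale) of the 43 genes in each library, by role and ordered by mean FPKM, with KO libraries as filled red and WT libraries as open blue symbols. Anpep lies between 1621 and 1982 in the 4 libraries, while Tmigd1 and Mep1a have both WT libraries to the right of both KO libraries.

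In 5 members the KO libraries were both higher than either WT library, namely Ggt1, Lct, Mep1b, Slc26a6 and Treh (11.6% of 43, where the share over all genes was 25.4%). In 8 members they were both lower than either WT library, namely Eps8, Mep1a, Myo1a, Naaladl1, Slc34a2, Slc3a1, Slc6a20a and Tmigd1 (18.6%, where the share over all genes was 24.6%). Neither share was above the background. For 28 of 43 members (65.1%) the 2 WT libraries were further apart than the group means, and this was so for 46.0% of the tested genes listed in all 4 libraries. The median member had 1.98-fold between its highest and lowest library, and the median gene 1.70-fold.

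**Figure D2:**
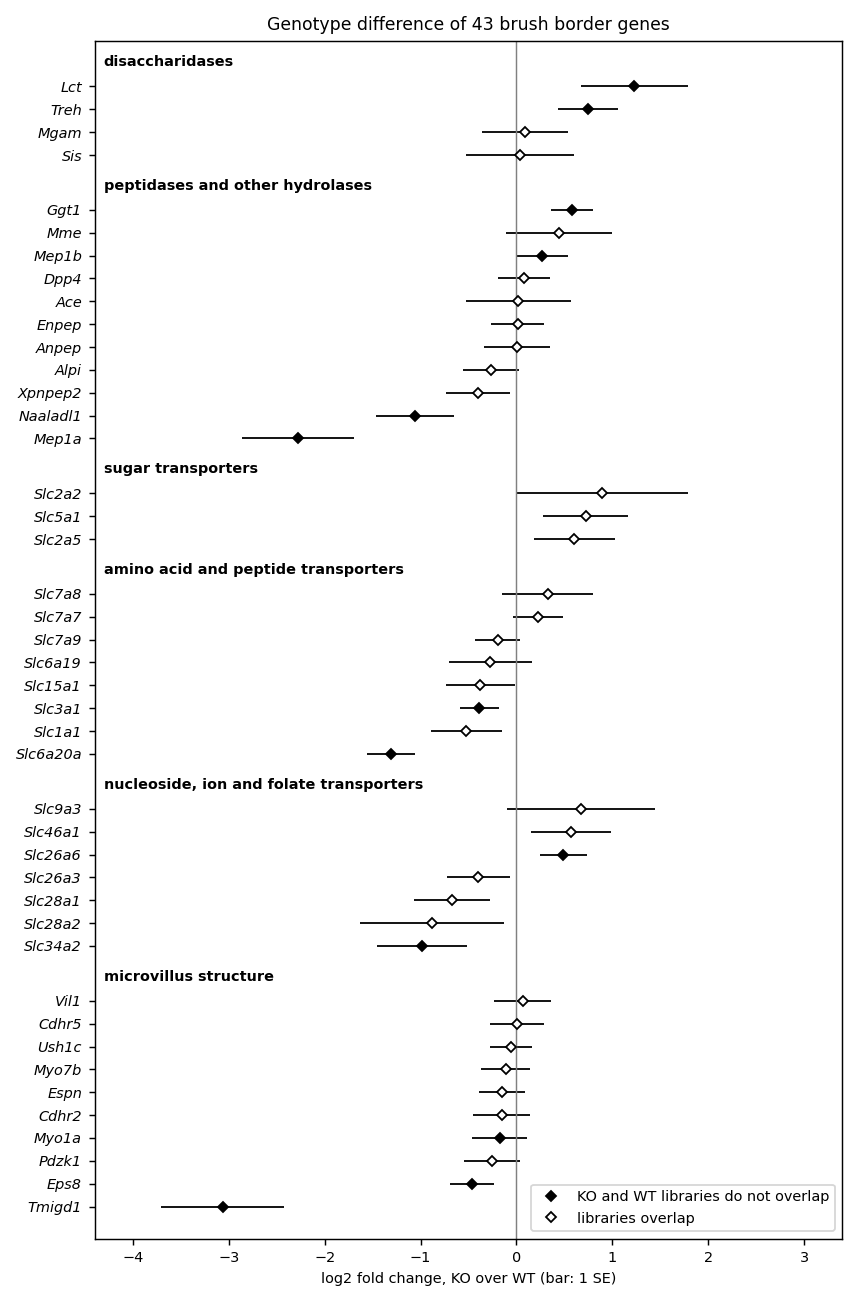
Log2 fold change (KO over WT) with 1 SE for each of the 43 genes, by role, n = 2 libraries per group. Filled diamonds mark the 13 genes whose KO and WT libraries do not overlap, and the lowest value is that of Tmigd1 at -3.06.

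The 4 disaccharidases split starch and sugar products into monosaccharides, and all 4 had log2 fold changes above 0, none of them called. Sucrase-isomaltase, Sis (chr3:72888557-72967863, mm10), had 2244 and 4593 CPM in KO libraries, against 4702 and 1967 CPM in WT libraries (log2 fold change 0.04, SE 0.56, edgeR adjusted p = 0.981). The high values were in KO library 2 and WT library 1 and the low ones in KO library 1 and WT library 2, so the groups overlapped fully. Maltase-glucoamylase, Mgam, its close relative, had 2252 and 4224 CPM in KO libraries, against 3699 and 2384 CPM in WT libraries (log2 fold change 0.09, SE 0.45, edgeR adjusted p = 0.94) and had the same pair of high libraries. RSEM divides reads between similar sequences, so the split between Sis and Mgam is an estimate.

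Lactase, Lct (chr1:128284756-128328318), the enzyme of milk sugar digestion, had 676 and 907 CPM in KO libraries, against 516 and 159 CPM in WT libraries (log2 fold change 1.23, SE 0.56, edgeR adjusted p = 0.351). WT library 2 was the lowest of the 4 and WT library 1 lay nearer to KO library 1 than to the other WT library. The log2 fold change of Lct was 0.63 without WT replicate 2 and 2.30 without WT replicate 1. Trehalase, Treh, had 116 and 175 CPM in KO libraries, against 105 and 68.1 CPM in WT libraries (log2 fold change 0.74, SE 0.31, edgeR adjusted p = 0.327), again with WT library 2 at the bottom and both KO libraries on top. Lct also stands in the list of proximal markers, whose other genes summed to 5985 and 3302 CPM in KO libraries, against 5744 and 537 CPM in WT libraries, and the part of region in these values was not tested.

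Among the peptidases and other hydrolases, the most abundant member of the whole set per length was aminopeptidase N, Anpep (chr7:79821803-79848210). Its level was 1621 and 1982 FPKM in KO libraries, against 1838 and 1822 FPKM in WT libraries. On the CPM scale it had 5863 and 6422 CPM in KO libraries, against 6150 and 6089 CPM in WT libraries (log2 fold change 0.01, SE 0.35, edgeR adjusted p = 0.996). The sign of this small difference turned below 0 under other scalings, so no direction is given. Glutamyl aminopeptidase, Enpep, was as steady, with 1335 and 1298 CPM in KO libraries, against 1289 and 1323 CPM in WT libraries and 1.04-fold between its extreme libraries. Dipeptidyl peptidase 4, Dpp4, had 503 and 683 CPM in KO libraries, against 557 and 570.5 CPM in WT libraries, with the WT values between the KO values.

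Meprin A is a secreted and membrane-bound metalloprotease whose alpha and beta chains are made from separate genes. Mep1a (chr17:43474324-43504143) had 171 and 84.3 CPM in KO libraries, against 327 and 910.1 CPM in WT libraries (log2 fold change -2.28, SE 0.59, edgeR adjusted p = 0.215). Every WT library was above every KO library, and the KO mean was 20.6% of the WT mean, but the WT libraries themselves were 2.78-fold apart. DESeq2 called it (adjusted p = 0.000739). Its log2 fold change was -1.34 without WT replicate 2 (edgeR adjusted p = 0.195), and -2.87 without KO replicate 1, the other extreme. Mep1b, the beta chain, had 929 and 1055 CPM in KO libraries, against 789 and 856 CPM in WT libraries, with both KO libraries slightly above both WT libraries.

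Naaladl1 (chr19:6105781-6115989), a peptidase related to glutamate carboxypeptidase, had 764 and 737 CPM in KO libraries, against 1023 and 2101 CPM in WT libraries (log2 fold change -1.06, SE 0.41, edgeR adjusted p = 0.298). Its KO mean was 48.1% of the WT mean, with WT library 2 far above the other 3 libraries. The log2 fold change was -0.43 without WT replicate 2 and -1.50 without WT replicate 1. The gene also stands in the list of ileal markers, whose other genes summed to 1988 and 962 CPM in KO libraries, against 1662 and 4402 CPM in WT libraries. Gamma-glutamyltransferase 1, Ggt1, which breaks down extracellular glutathione, had 361 and 377 CPM in KO libraries, against 238 and 255 CPM in WT libraries (log2 fold change 0.58, SE 0.22, edgeR adjusted p = 0.296). Its libraries were close within each group and did not overlap, and its unadjusted p was 0.0377.

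The other hydrolases did not separate by genotype. Intestinal alkaline phosphatase, Alpi, had 411 and 423 CPM in KO libraries, against 609 and 394 CPM in WT libraries, and only WT library 1 stood out. Angiotensin-converting enzyme, Ace, had its highest and its lowest value in the 2 WT libraries, with 759 and 840.2 CPM in KO libraries, against 1208 and 369 CPM in WT libraries. Neprilysin, Mme, had 251 and 313 CPM in KO libraries, against 323 and 93.01 CPM in WT libraries, and aminopeptidase P, Xpnpep2, had 212 and 215 CPM in KO libraries, against 198 and 366 CPM in WT libraries. In both genes WT library 2 was the odd one, low for Mme and high for Xpnpep2.

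Glucose and galactose enter through the sodium-coupled transporter SGLT1 (Slc5a1), fructose enters through GLUT5 (Slc2a5), and all 3 sugars can use GLUT2 (Slc2a2), which sits mainly on the basolateral side. All 3 genes had their highest value in KO library 2 and their lowest in WT library 2. Slc5a1 (chr5:33104219-33162699) had 1465 and 2433 CPM in KO libraries, against 1545 and 820.3 CPM in WT libraries (log2 fold change 0.72, SE 0.44, edgeR adjusted p = 0.468). Slc2a5 had 118 and 185 CPM in KO libraries, against 137 and 62.2 CPM in WT libraries (log2 fold change 0.60, SE 0.42, edgeR adjusted p = 0.519). For both of these, KO library 1 lay below WT library 1, so the groups overlapped. Slc2a2 had 76.8 and 175 CPM in KO libraries, against 120.0 and 15.5 CPM in WT libraries (log2 fold change 0.89, SE 0.89, edgeR adjusted p = 0.654), a range of 11.3-fold. Without WT replicate 2 the log2 fold changes of Slc5a1, Slc2a5 and Slc2a2 were 0.35, 0.16 and 0.09, and without WT replicate 1 they were 1.23, 1.27 and 3.01. Without KO replicate 2 they were 0.31, 0.25 and 0.18, and without KO replicate 1 they were 1.05, 0.90 and 1.38. Gata4, the proximal transcription factor, was low in the same library, with 156 and 165 CPM in KO libraries, against 134 and 27.3 CPM in WT libraries. The part of region in the sugar transporter values was not tested.

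Amino acids and small peptides enter by several carriers with overlapping substrates, and 6 of these 8 genes had log2 fold changes below 0. Slc6a20a (chr9:123636907-123678832), a sodium- and chloride-coupled carrier of proline and other imino acids, had the smallest unadjusted p of all 43 genes, 0.002. It had 68.98 and 60.2 CPM in KO libraries, against 132 and 188 CPM in WT libraries (log2 fold change -1.31, SE 0.25, edgeR adjusted p = 0.158). The groups did not overlap, and the KO mean was 40.4% of the WT mean. DESeq2 called it (adjusted p = 0.000945), and without WT replicate 2 its log2 fold change was -1.01 (edgeR adjusted p = 0.148).

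The other carriers of this role were nearer to even. The most abundant per length was Slc6a19 (chr13:73679745-73700780), the main carrier of neutral amino acids, with 78.9 and 133 FPKM in KO libraries, against 179 and 80.3 FPKM in WT libraries. On the CPM scale it had 201 and 304 CPM in KO libraries, against 421 and 189 CPM in WT libraries (log2 fold change -0.27, SE 0.43, edgeR adjusted p = 0.788), and both KO values lay between the WT values. Slc3a1, the heavy chain of the cystine carrier, had 151 and 148 CPM in KO libraries, against 206 and 185 CPM in WT libraries (log2 fold change -0.39, SE 0.20, edgeR adjusted p = 0.406), without overlap. It shares its locus with Prepl, and strand was not given, so reads of the 2 genes may not be separable. Its light chain Slc7a9 had 177 and 151 CPM in KO libraries, against 162 and 214 CPM in WT libraries, with the groups overlapping.

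Slc1a1, a carrier of glutamate and aspartate, had 137 and 96.9 CPM in KO libraries, against 114 and 222 CPM in WT libraries (log2 fold change -0.52, SE 0.37, edgeR adjusted p = 0.519), with WT library 2 alone on top. Slc15a1, the proton-coupled carrier PEPT1 of di- and tripeptides, had 201 and 317 CPM in KO libraries, against 423 and 249 CPM in WT libraries, and WT library 1 was the highest. The last pair of light chains, Slc7a7 and Slc7a8, exports amino acids across the basolateral side. Slc7a7 had 247 and 187 CPM in KO libraries, against 209 and 163 CPM in WT libraries, and Slc7a8 had 359.7 and 416 CPM in KO libraries, against 454 and 165 CPM in WT libraries. WT library 2 was the lowest for both, and the KO values lay on either side of WT library 1 for Slc7a7 and between the WT values for Slc7a8.

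The nucleoside, ion and folate transporters included the least abundant members of the set per length, Slc28a1 among them. The most abundant per length was Slc26a6, an anion exchanger of chloride, bicarbonate and oxalate, with 85.4 and 89 FPKM in KO libraries, against 53.9 and 73.2 FPKM in WT libraries. In CPM it had 299 and 279 CPM in KO libraries, against 175 and 237 CPM in WT libraries (log2 fold change 0.49, SE 0.25, edgeR adjusted p = 0.39), and both KO libraries were above both WT libraries. Slc34a2, the intestinal sodium-phosphate cotransporter that is known in mice as a gene of the ileum, had 84.4 and 225 CPM in KO libraries, against 266 and 347 CPM in WT libraries (log2 fold change -0.99, SE 0.47, edgeR adjusted p = 0.368). Its KO libraries were below its WT libraries but 2.66-fold apart from each other, and its log2 fold change was -0.44 without KO replicate 1 and -1.86 without KO replicate 2. Slc28a1, a sodium-coupled carrier of pyrimidine nucleosides, had 10.03 and 13.1 CPM in KO libraries, against 24.2 and 12.7 CPM in WT libraries (log2 fold change -0.67, SE 0.40, edgeR adjusted p = 0.453), with WT library 1 alone on top.

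Slc28a2, the purine nucleoside carrier, had 14.7 and 49.7 CPM in KO libraries, against 93.2 and 25.3 CPM in WT libraries, and each group held a low and a high library. Slc9a3, the sodium-proton exchanger NHE3 that drives sodium uptake, had 28.5 and 58 CPM in KO libraries, against 46.1 and 8.04 CPM in WT libraries, lowest in WT library 2. Slc26a3, the chloride-bicarbonate exchanger, had 129 and 177 CPM in KO libraries, against 255 and 148 CPM in WT libraries. Its highest value was in WT library 1 and its lowest in KO library 1. Slc46a1, the proton-coupled folate carrier, had 35.7 and 15.5 CPM in KO libraries, against 17.6 and 16.9 CPM in WT libraries, with KO library 1 high and the other 3 libraries alike.

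**Figure D3:**
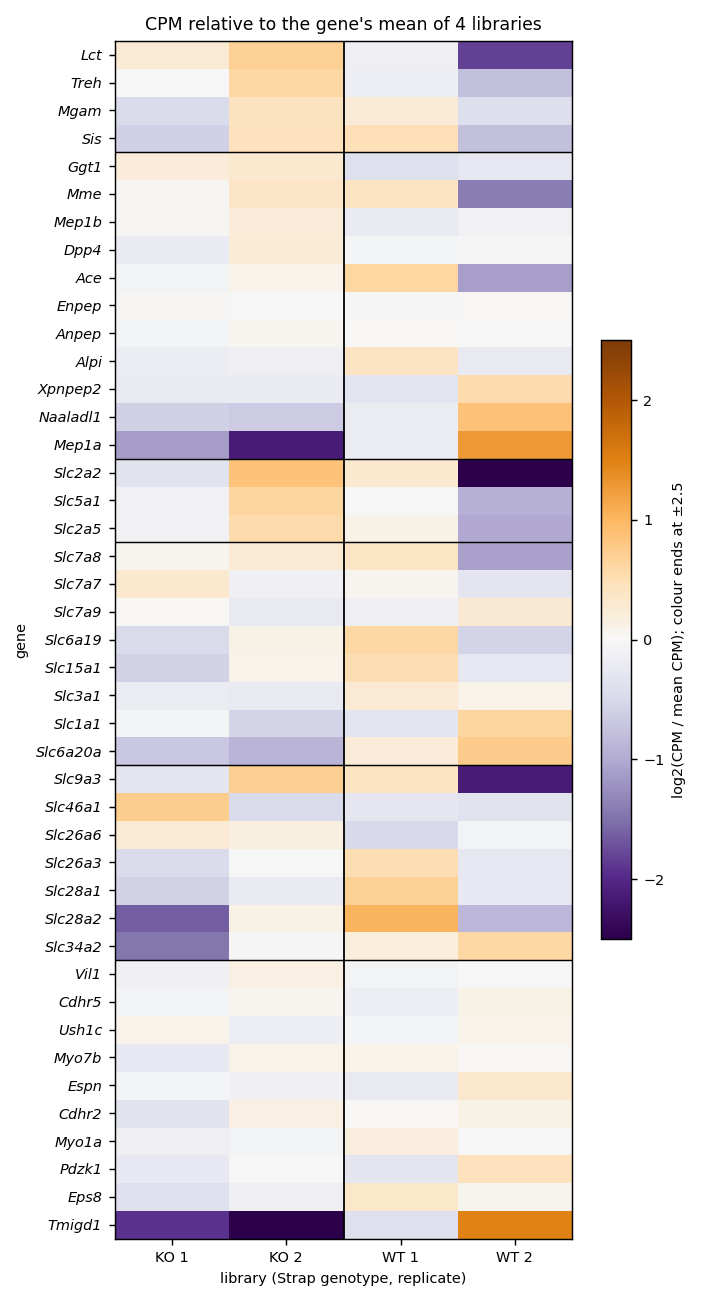
Log2 of each gene's CPM over its mean in the 4 libraries, for all 43 genes by role (black lines divide roles), with KO libraries in the left columns and WT libraries in the right ones. WT library 2 is dark purple (low) for Lct, Slc2a2 and Slc9a3 and orange (high) for Mep1a and Tmigd1, while the microvillus genes other than Tmigd1 are pale throughout.

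Microvillus structure was the steadiest role, with a median of 1.34-fold between the extreme libraries of a gene. Villin, Vil1 (chr1:74409384-74435560), the main actin bundler, was its most abundant member per length, with 536 and 715 FPKM in KO libraries, against 595 and 619 FPKM in WT libraries. In CPM it had 1755 and 2094 CPM in KO libraries, against 1801 and 1873 CPM in WT libraries (log2 fold change 0.07, SE 0.30, edgeR adjusted p = 0.934), with the WT values between the KO values. Cdhr5 had 1119 and 1188 CPM in KO libraries, against 1046 and 1251 CPM in WT libraries, and its partner Cdhr2 had 755 and 1050 CPM in KO libraries, against 963 and 1046 CPM in WT libraries. Both tip-link protocadherins overlapped between the groups.

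Myo1a, the motor that joins actin bundles to the membrane, had 1321 and 1376 CPM in KO libraries, against 1628 and 1421 CPM in WT libraries, a small gap without overlap. The tip-link complex members Myo7b and Ush1c, a motor and a scaffold, overlapped, with 428 to 552 CPM and 177 to 211 CPM over the 4 libraries. Espn, a second bundler, had 66.9 and 64.6 CPM in KO libraries, against 59.3 and 86.8 CPM in WT libraries, and Pdzk1, a scaffold under apical transporters, had 111 and 131 CPM in KO libraries, against 108 and 180.4 CPM in WT libraries (log2 fold change -0.25, SE 0.29, edgeR adjusted p = 0.704). WT library 2 was the highest of the 4 for both genes.

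Eps8 (chr6:137477245-137649397), which caps and bundles actin at the tip, had 149 and 176 CPM in KO libraries, against 246 and 202 CPM in WT libraries (log2 fold change -0.46, SE 0.23, edgeR adjusted p = 0.381). Both KO libraries were below both WT libraries. Eps8 lies on the chromosome of the deleted gene, 85.7 kb from Strap (chr6:137735082-137751930), with 1 RefSeq gene between. Whether its position bears on its level was not tested.

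Tmigd1 (chr11:76891120-76916587), a membrane protein of the microvillus and of cell junctions, was the exception in this role and had the widest range of the whole set, 17.1-fold. It had 33.2 and 20.7 CPM in KO libraries, against 96.8 and 355 CPM in WT libraries (log2 fold change -3.06, SE 0.64, edgeR adjusted p = 0.182). Per length the level was 23.8 and 16.6 FPKM in KO libraries, against 74.95 and 276 FPKM in WT libraries. Both KO libraries were far below WT library 1, and WT library 2 was higher still, so the KO mean was 11.9% of the WT mean while the WT libraries were 3.66-fold apart. DESeq2 called it (adjusted p = 6.07e-06). Without WT replicate 2 the log2 fold change was -1.82 and edgeR called it (adjusted p = 0.0469), in a fit where the lone WT library is assumed to vary like the KO libraries and where 2.21% of genes were called lower and 0.524% higher.

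The 3 members that DESeq2 called, Tmigd1, Mep1a and Slc6a20a, shared an order of libraries, with WT library 2 on top, then WT library 1, KO library 1 and KO library 2. Naaladl1 had the same order. These members were picked as lower in KO, so having both WT libraries on top largely followed from the choice. The share of all genes with this order was not counted. The ileal genes Slc10a2, with 70.1 and 11.4 CPM in KO libraries, against 84.9 and 259 CPM in WT libraries, and Fabp6, with 893 and 118 CPM in KO libraries, against 421 and 2451 CPM in WT libraries, were also highest in WT library 2 and lowest in KO library 2. For Slc10a2 the middle libraries were close, and for Fabp6 KO library 1 was above WT library 1. The summed tuft cell markers and Lgr5, given above, were likewise lower in both KO libraries and highest in WT library 2. The parts of region and of tuft, Paneth, goblet and stem cell content in the 4 lower members were not tested.

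**Figure D4:**
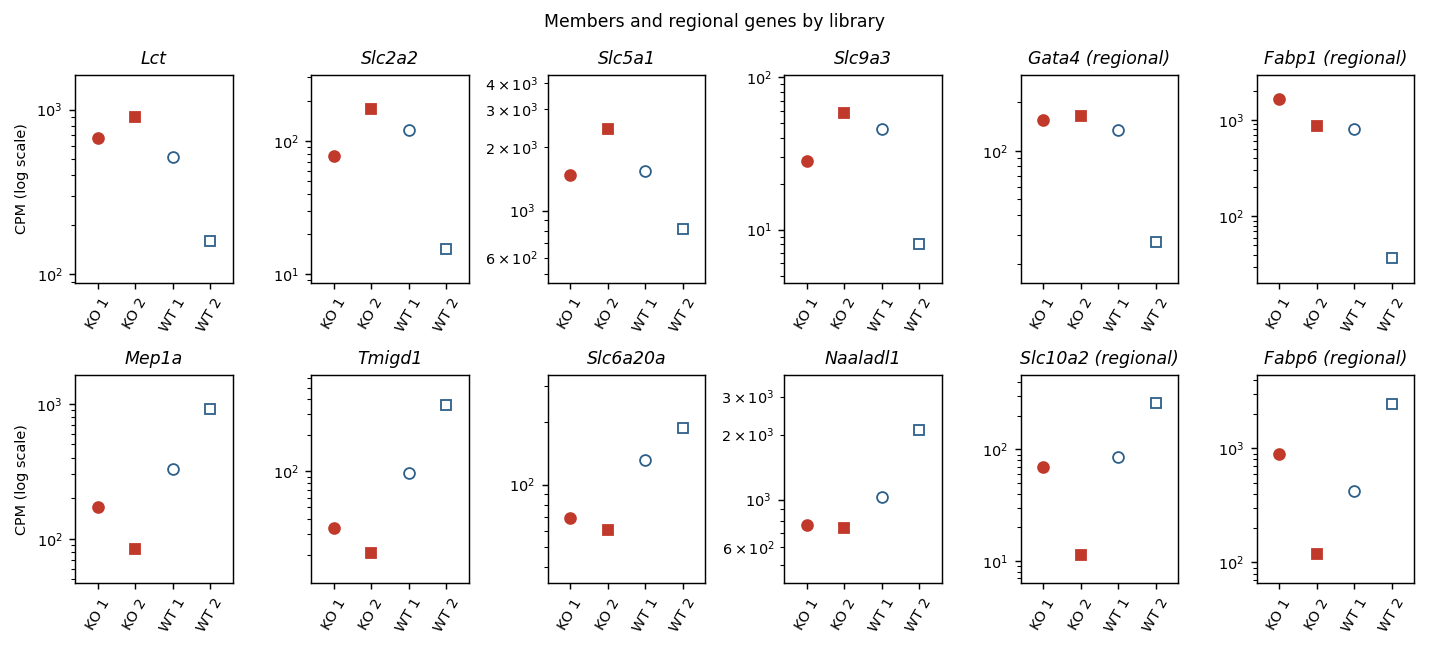
CPM (log scale, own axis per gene) in each library, KO libraries left of WT libraries. In the upper row, members and the regional genes Gata4 and Fabp1 are lowest in WT library 2. In the lower row Mep1a, Tmigd1, Slc6a20a and Naaladl1 are highest in that library, as are the ileal genes Slc10a2 and Fabp6. The panels were chosen by hand, and the proximal Cybrd1 and ileal Ubd, not shown, do not follow this pattern.

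Promoter sequences are shown for the 3 members that DESeq2 called lower, and for Lct and Sis, whose libraries were ordered otherwise. RefSeq windows (GRCm38.p6, 250 bases before to 50 bases after an annotated start) were found for 39 of the 43 members. These members had 54 windows, so some had more than 1 start. Each window is given 5′ to 3′ on the gene's own strand, and capitals mark 3 words searched on both strands: the HNF4 core CAAAGT, the word TTTATG known for CDX factors, and AGATAA, which is known for GATA factors. None of these words contains another. Tmigd1 lies on chr11:76901909-76902208 (plus strand), Mep1a on chr17:43502724-43503023 (minus), Slc6a20a on chr9:123678783-123679082 (minus), Lct on chr1:128328269-128328568 (minus) and Sis on chr3:72967814-72968113 (minus). For Tmigd1, which has more than 1 RefSeq window, the one set on the start of its GENCODE basic transcript is given. The windows of Tmigd1 and Mep1a lie inside the gene spans given above, so each is set on an internal start and not on the outer end of the gene.
Tmigd1: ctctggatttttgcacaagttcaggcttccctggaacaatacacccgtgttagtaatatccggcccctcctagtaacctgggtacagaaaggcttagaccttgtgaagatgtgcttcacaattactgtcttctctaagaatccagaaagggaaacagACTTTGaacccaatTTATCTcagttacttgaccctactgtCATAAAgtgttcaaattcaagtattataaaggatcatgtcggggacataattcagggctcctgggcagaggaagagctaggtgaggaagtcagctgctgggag
Mep1a: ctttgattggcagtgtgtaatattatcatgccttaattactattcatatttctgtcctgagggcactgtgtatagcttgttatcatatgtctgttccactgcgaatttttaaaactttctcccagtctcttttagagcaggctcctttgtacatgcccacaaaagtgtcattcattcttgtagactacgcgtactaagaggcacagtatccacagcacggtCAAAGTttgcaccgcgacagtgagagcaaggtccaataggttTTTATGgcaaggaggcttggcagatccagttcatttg
Slc6a20a: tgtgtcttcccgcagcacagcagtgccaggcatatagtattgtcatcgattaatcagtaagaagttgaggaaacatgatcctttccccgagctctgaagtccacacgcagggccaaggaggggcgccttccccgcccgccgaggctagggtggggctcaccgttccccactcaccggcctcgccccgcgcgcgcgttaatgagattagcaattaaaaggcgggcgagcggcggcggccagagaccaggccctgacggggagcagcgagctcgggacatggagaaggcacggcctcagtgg
Lct: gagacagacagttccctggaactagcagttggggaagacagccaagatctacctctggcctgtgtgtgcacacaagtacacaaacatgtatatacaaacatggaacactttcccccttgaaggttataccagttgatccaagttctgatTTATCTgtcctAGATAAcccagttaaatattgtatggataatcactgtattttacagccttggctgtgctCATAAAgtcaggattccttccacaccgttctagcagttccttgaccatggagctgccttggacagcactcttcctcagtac
Sis: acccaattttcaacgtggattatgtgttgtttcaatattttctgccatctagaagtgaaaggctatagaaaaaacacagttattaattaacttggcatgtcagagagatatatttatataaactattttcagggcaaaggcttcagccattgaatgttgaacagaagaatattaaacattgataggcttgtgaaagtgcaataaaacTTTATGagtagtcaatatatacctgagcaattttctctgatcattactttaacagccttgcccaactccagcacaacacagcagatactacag

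The 3 lower members did not hold the same words. Tmigd1 held the HNF4 core, CDX and GATA words, all on the opposite strand, Mep1a held the HNF4 core and CDX words, and Slc6a20a held none of the 3 words. Lct held the CDX word and 2 GATA words, and Sis held the CDX word. Over all matched members, CAAAGT was found for 14 of 39 (35.9%, against 16.1% of all genes with a window), TTTATG for 7 (17.9%, against 13.6%) and AGATAA for 9 (23.1%, against 12.7%). A match of letters is a description and is not a site of binding.

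The longer HNF4 word CAAAGTCCA, which contains CAAAGT, was in the windows of 4 of 39 members (10.3%), and in those of 0.555% of all genes. The 4 are shown with 16 bases on each side, the word in capitals, on the strand of the gene. They lie at chr1:87101601-87101641 (minus) for Alpi, chr3:96830063-96830103 (plus) for Pdzk1, chr17:85028292-85028332 (plus) for Slc3a1 and chr9:44673146-44673186 (plus) for Treh, where the word is on the opposite strand. The Pdzk1 stretch lies inside the span of its gene (chr3:96829456-96870926).
Alpi: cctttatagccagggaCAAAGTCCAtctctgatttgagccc
Pdzk1: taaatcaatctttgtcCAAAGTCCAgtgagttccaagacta
Slc3a1: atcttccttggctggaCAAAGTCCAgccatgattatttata
Treh: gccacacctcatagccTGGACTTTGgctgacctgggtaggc

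These 4 genes did not share a direction. As given above, Treh was higher and Slc3a1 lower in both KO libraries, and Alpi and Pdzk1 overlapped. Hnf4a itself had 1355 and 1045 CPM in KO libraries, against 1129 and 1193 CPM in WT libraries (log2 fold change 0.05, SE 0.29, edgeR adjusted p = 0.951), a level at which the groups overlapped. Cdx2 had 274 and 199.8 CPM in KO libraries, against 165 and 242 CPM in WT libraries, also with overlap. Among the 20 transcription factors of enterocytes none was called, 7 had log2 fold changes above 0 and 13 below 0, and the median was -0.12. The 3 with the smallest p were Klf4, which restrains the cell cycle in differentiated epithelium, with 98.5 and 151 CPM in KO libraries, against 272 and 191 CPM in WT libraries (log2 fold change -0.89, SE 0.31, edgeR adjusted p = 0.273), the vitamin D receptor Vdr (log2 fold change -0.60, SE 0.27, edgeR adjusted p = 0.347) and the crypt factor Klf5 (log2 fold change -0.51, SE 0.23, edgeR adjusted p = 0.354). All 3 had both KO libraries below both WT libraries.

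Further brush border enzymes and transporters outside the set, 26 of 30 tested, gave 15 log2 fold changes above 0 and 11 below 0, with a median of 0.19 and no edgeR call. Cubn, which encodes cubilin, the ileal receptor for vitamin B12 with intrinsic factor, had 133 and 94.3 CPM in KO libraries, against 396 and 725 CPM in WT libraries (log2 fold change -2.30, SE 0.38, edgeR adjusted p = 0.131). Its order of libraries had both WT libraries on top, WT library 2 first, as for Tmigd1. Slc5a4a, a relative of SGLT1, had 25.6 and 45.7 CPM in KO libraries, against 6.15 and 8.62 CPM in WT libraries (log2 fold change 2.27, SE 0.38, edgeR adjusted p = 0.131), both KO libraries on top. Slc52a3, a riboflavin carrier, had 65.9 and 71.1 CPM in KO libraries, against 109 and 153 CPM in WT libraries (log2 fold change -0.94, SE 0.24, edgeR adjusted p = 0.211). DESeq2 called these 3 and Slc23a1, a vitamin C carrier with 32.5 and 66.9 CPM in KO libraries, against 21.1 and 6.35 CPM in WT libraries, so that 2 of 26 were higher and 2 lower in KO, where DESeq2 called 1.77% of all genes higher and 3.26% lower.

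Genes that help to build or supply microvilli, 25 of 26 tested, gave 18 log2 fold changes below 0 and 7 above 0, with a median of -0.20 and no call by either tool. In 13 of the 25 the KO libraries were both lower than either WT library (52.0%, where the share over all genes was 24.6%), and in 4 both were higher (16%, where the share over all genes was 25.4%). Those below included ezrin, Ezr, which links actin to the membrane, with 574 and 721 CPM in KO libraries, against 998 and 768 CPM in WT libraries, and the actin nucleator Cobl, with 123 and 211 CPM in KO libraries, against 337 and 215 CPM in WT libraries. Also below were the scaffold Slc9a3r1, with 611 and 596 CPM in KO libraries, against 696 and 658 CPM in WT libraries, and the membrane-bending protein Baiap2l2, with 285 and 328 CPM in KO libraries, against 339 and 404 CPM in WT libraries. The 3 with the smallest p were the vesicle fusion protein Stx3 (log2 fold change 0.59, SE 0.19, edgeR adjusted p = 0.261), the actin monomer binder Twf2 (log2 fold change 0.89, SE 0.35, edgeR adjusted p = 0.302) and the motor Myo1e (log2 fold change -0.53, SE 0.23, edgeR adjusted p = 0.328).

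The 13 basolateral partners, which pass absorbed solutes on to the blood or set the gradients for uptake, had a median log2 fold change of -0.16, with 6 above 0, 7 below 0 and no call by either tool. The 3 with the smallest p were the potassium channel Kcnn4 (log2 fold change 0.91, SE 0.29, edgeR adjusted p = 0.264), the bicarbonate cotransporter Slc4a4 (log2 fold change -0.66, SE 0.23, edgeR adjusted p = 0.278) and the chloride loader Slc12a2 (log2 fold change -0.72, SE 0.33, edgeR adjusted p = 0.349). Kcnn4 was higher and the others lower in both KO libraries.

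None of the 30 regional genes tested was called by edgeR. DESeq2 called 7 of them, with Prap1, Ubd, Lypd8 and Car4 higher in KO and Cybrd1, Sult1c2 and Muc6 lower. Over all genes it called 1.77% higher and 3.26% lower. Of the proximal list the 3 with the smallest p were the duodenal ferric reductase Cybrd1, with 4.09 and 4.02 CPM in KO libraries, against 10.6 and 10.4 CPM in WT libraries, Prap1, with 494 and 389 CPM in KO libraries, against 240.0 and 237 CPM in WT libraries, and the calcium binder S100g, with 2.59 and 0.545 CPM in KO libraries, against 144 and 3.82 CPM in WT libraries. S100g was high in WT library 1 alone. Of the ileal list they were Ubd, which is also induced by interferon, with 4.91 and 36.2 CPM in KO libraries, against 0.769 and 2.98 CPM in WT libraries, and Naaladl1 and Slc10a2, given above. Of the colon list they were Sult1c2, with 0.887 and 0.817 CPM in KO libraries, against 3.01 and 13.4 CPM in WT libraries, Car4, with 323 and 219.9 CPM in KO libraries, against 157 and 107 CPM in WT libraries, and Muc6, with 0.136 and 1.02 CPM in KO libraries, against 404 and 3.11 CPM in WT libraries. Muc6 is better known as a mucin of the stomach and of duodenal glands, and it was high in WT library 1 alone.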

How the data were processed

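Polyadenylated RNA of 4 adenoma libraries was read as paired reads of 100 bases on a BGISEQ-500, per the labels' protocols. Bowtie2 2.2.5, RSEM 1.2.12 and the build mm10 are named in the submitters' processing notes, with no order of steps. Per the file headers, the deposited tables hold expected counts of RSEM for each gene. They also hold the authors' FPKM per gene, with 0.01 as the lowest listed value. Whether counting used strand is not stated, and 17 members overlap another RefSeq gene, so such reads may be shared. Tables were joined by Entrez identifier (17721 of 17762 found in RefSeq, GRCm38.p6, the source of coordinates, names and promoter windows). The 1 row without a gene in each table held at most 0.000233% of counts and was left out.

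Expected counts were rounded and tested with the edgeR 4.0.16 quasi-likelihood test (R 4.3.3) on genotype alone, after TMM scaling and filterByExpr, with Benjamini-Hochberg adjustment over all 12769 genes. CPM are scaled by TMM factors. Total counts of 14084831 to 15640941 per library set the counting precision, and the biological coefficient of variation was 32.5%, on 2 residual degrees of freedom. Alternatives were DESeq2 1.42.0, its size factors in edgeR, no filter, a minimum of 50 counts in 2 or more libraries, library size alone, limma 3.58.1 on log2(FPKM + 1) and log2(FPKM + 0.1), a replicate block and each library left out. A crossed replicate block was added after seeing the data.

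All 43 members were reported. In each role the 3 with the smallest p and the one with the highest mean FPKM got library values and a fold change with SE, the others library values or a range, and of each list of other brush border, microvillus, basolateral, transcription factor and regional genes the 3 with the smallest p were named. Ezr, Cobl, Slc9a3r1, Baiap2l2, Slc23a1, Lypd8 and Lgr5 were chosen after their values were seen, and Hnf4a, Cdx2 and Gata4 for their promoter words or region. The members and lists were chosen with earlier results of these data known, so no count over them is independent support.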

Additional observations from a re-analysis of the deposited data

How the results depend on the processing

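Of 264 values for the 22 members given with fold changes, under 12 alternatives, 243 kept their direction and side of the threshold, 4 passed it in addition and 17 changed sign, in 7 members. The other 15 members never changed sign. Anpep had a log2 fold change of 0.01, and -0.0107 with DESeq2 size factors, -0.0221 with library size alone, -0.0303 with at least 50 counts, -0.0001 with DESeq2, and -0.0296 with limma at either pseudocount. With 1 library left out the values ran from -0.0633 to 0.0777 for Anpep, -0.43 to 0.48 for Mgam, -0.59 to 0.18 for Pdzk1, -0.57 to 0.78 for Sis, -0.94 to 0.0548 for Slc1a1, -0.72 to 0.40 for Slc6a19 and -0.0669 to 0.20 for Vil1. Members called were 0 in the edgeR fit as reported, 3 with DESeq2, 3 with the crossed replicate block, and 0 to 1 with 1 library left out. Over all genes the calls were 1, against 0 with library size alone, 27 with no filter, 667 with DESeq2, 0 with limma at either pseudocount, 116 with the replicate block, 164 with the crossed replicate block, and 0 to 370 with 1 library left out, where 370 came without WT replicate 2. The causes were not tested. Same-numbered libraries deviated with a correlation of -0.134 across genes, so the numbers are not read as pairs, and the replicate block called 0 members. By Xist and Ddx3y the number coincides with a male- or female-type pattern in both genotypes, so the replicate block is also a block for that pattern. Members whose groups did not overlap numbered 13, and 26 to 31 with 1 library left out, where only 3 libraries must separate. Over these settings the all-gene median ranged from -0.07 to 0.02. With 2 libraries per group, differences near the WT spread could not be resolved at this depth. Larger ones could be missed too, since Strap itself was not called in the main fit (edgeR adjusted p = 0.0942), although DESeq2 called it.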
